A study of Mus musculus with 2 samples.

Results

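The 10 genes described here encode CD40 and the proteins that dock to its cytoplasmic tail or regulate that docking: the receptor Cd40, the adaptors Traf1, Traf2, Traf3, Traf5 and Traf6, the ubiquitin ligases Birc2 and Birc3 (cIAP1 and cIAP2), the kinase Map3k14 (NF-kB-inducing kinase, NIK) and the TRAF-binding modulator Tank. They were chosen by name from a table of 34714 genes, and all 10 were in the table. The series compared cultured bone marrow-derived macrophages of C57BL/6 mice, grown in 20 ng/mL macrophage colony-stimulating factor, after 24 h with the CD40-activating antibody FGK45 (anti-CD40) or with IgG, with 1 RNA sequencing library per group. No other allele or agent is given in the labels, and they state neither an antibody dose nor how many mice or cultures a library came from. With 1 library per group, no difference has a replicate check and no test or p-value was computed, so genes are called only higher or lower under FGK45, the anti-CD40 library.

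CD40 has no enzymatic activity of its own and signals through TRAF proteins, trimeric adaptors recruited when the receptor is clustered by its ligand or an activating antibody. In resting cells TRAF3 tethers NIK to a complex in which TRAF2 carries cIAP1 and cIAP2, and these ligases mark NIK for degradation. Receptor engagement turns the ligases on TRAF3, NIK accumulates, and the alternative NF-kB pathway through RelB and the processed product of Nfkb2 is opened. TRAF6 acts mainly through the kinase TAK1 on the canonical NF-kB pathway and on MAP kinases. Most of this control acts on proteins, which RNA levels do not measure.

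Stretches of DNA before annotated start sites of these genes were searched for the binding motifs of factors that act downstream of CD40. The reason is that several of the genes are themselves known NF-kB targets. RefSeq windows of 250 bases before a start site (GRCm38.p6) were at hand for 9 of the 10 genes, 13 windows in all, with Cd40 being the exception. Both strands were searched for the NF-kB consensus, the AP-1 motif TGANTCA and the cyclic AMP response motif TGACGTCA, which share no site in these windows. Of 32841 windows of the same length over all genes, 3.9% held the NF-kB consensus, 6.75% the AP-1 motif and 1.55% the cyclic AMP response motif. The matches in the 10 genes lay at Traf3, Birc2 and Tank, and each is shown with its surroundings, 30 bases in all, with the match in capitals. All of these matches lie inside the RefSeq span of their gene, before a start site within it, and not upstream of the whole gene. They lie at chr12:111166350-111166379 (plus strand, NF-kB consensus, the match ending at the base before a Traf3 start site), chr9:7837074-7837103 (minus strand, cyclic AMP response motif), chr2:61593015-61593044 (plus strand, NF-kB consensus, before a start site inside the Tank gene) and chr2:61593080-61593109 (plus strand, AP-1).
Traf3: ggcggcccgcGGGGATTTCCagcgcgcgag
Birc2: tgcgcgtctgcTGACGTCAcctcaacggcc
Tank (NF-kB): ctttgtgggcGGGGCTTTCCtgcagaggcg
Tank (AP-1): tgaagcgttaaTGACTCAgagcgcagtcgc
The windows of Traf1, Traf2, Traf5, Traf6, Birc3 and Map3k14 held none of these letters, which says nothing of sites further away. Those of Birc3 and Traf2 are printed, as far as they lie outside the annotated gene, because these genes differed in opposite directions between the libraries. The Birc3 stretch is chr9:7873206-7873420 and the Traf2 stretch chr2:25546941-25547190, both on the minus strand and read 5′ to 3′.
Birc3: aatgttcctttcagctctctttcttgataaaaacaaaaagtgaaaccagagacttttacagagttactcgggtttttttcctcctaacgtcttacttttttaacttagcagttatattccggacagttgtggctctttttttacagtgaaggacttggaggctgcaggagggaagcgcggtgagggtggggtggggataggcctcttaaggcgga
Traf2: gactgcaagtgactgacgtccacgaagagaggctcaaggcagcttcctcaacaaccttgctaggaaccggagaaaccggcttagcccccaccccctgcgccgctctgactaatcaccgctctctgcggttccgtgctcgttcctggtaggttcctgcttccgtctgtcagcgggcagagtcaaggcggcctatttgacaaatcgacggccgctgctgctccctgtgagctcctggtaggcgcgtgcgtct
Matches of this kind describe the sequence and are not evidence of binding. Of the genes with a match, Traf3 and Birc2 were higher under FGK45, and Tank was lower with a counting interval that includes no difference. A link between these motifs and the direction of a gene was not tested.

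All 10 genes were measured at 1 FPKM or more in both libraries, so none was lost to the filter on low values. FPKM counts sequenced fragments per length of transcript, scaled by library size, so that levels of different genes can be compared. Traf1 was the most abundant member in both libraries, and Traf6 the least. The levels of the 10 genes ran from 2.55 to 11.3 FPKM under FGK45 and from 2.17 to 10.6 under IgG. These are low to middling levels: Traf1 stood above 61.4% and Traf6 above 20.8% of the 9591 genes that reached 1 FPKM in either library, by their IgG values. The steps in the values imply about 6.16 gigabases of aligned sequence for FGK45 and 5.58 for IgG. Intervals below are exact 95% intervals on approximate fragment numbers (99 to 512 per gene under FGK45, 79 to 458 under IgG) and cover counting error only.

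**Figure D1:**
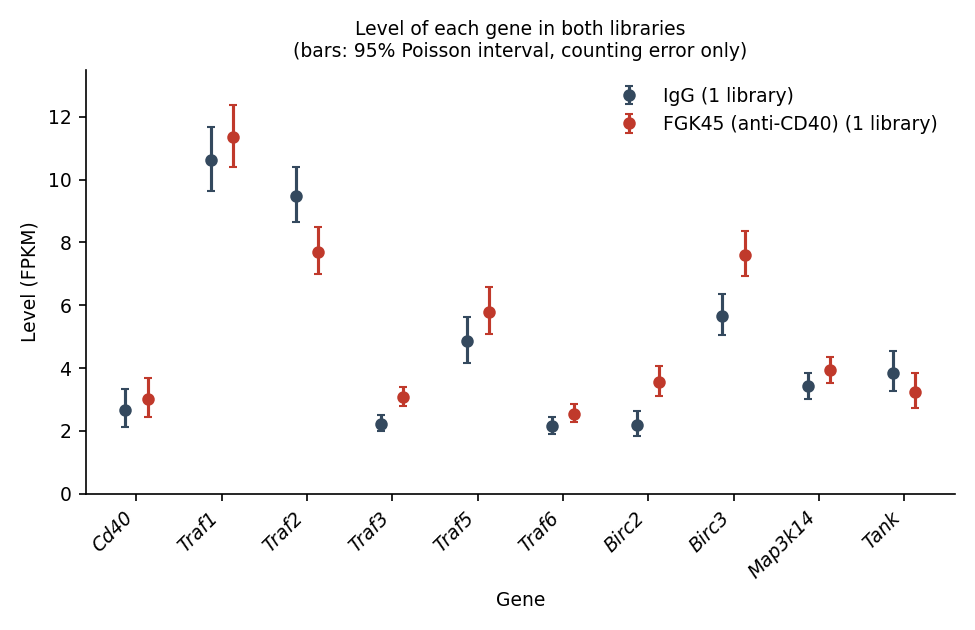
Level of each of the 10 genes in FPKM on a linear axis, with dark blue for IgG and red for FGK45, 1 library each; bars are 95% Poisson intervals on approximate fragment numbers and leave out the spread between cultures. The bars of the 2 libraries are apart for Traf2, Traf3, Birc2 and Birc3 and overlap for the other 6 genes. How often bars are apart over all genes was not computed, so nothing particular to these genes is read from it.

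Across the group, 8 genes were higher under FGK45 and 2, Traf2 and Tank, were lower. Of all genes counted, 67.8% were higher under FGK45, so most genes shared that direction. The measure of difference is the log2 ratio of (FPKM + 1), anti-CD40 over IgG, on which the whole table was shifted: the median over the 9101 genes that reached 1 FPKM in each library was 0.12. The median of the 10 genes was 0.16, and 7 of them lay above the median of all genes. Past 0.32 on this scale, a ratio of 5 to 4, 3 of the 10 were higher (Birc2, Birc3 and Traf3), against 18.3% of the 9591 genes, and 0 were lower, against 8.26%. At 2-fold, 0 were higher (0.25% of all genes) and 0 lower (0.313%). Relative to the median of all genes, 1 of the 10 lay 0.32 or more above (Birc2) and 1 as far below (Traf2), against 7.62% and 13.7% of all genes. A pseudocount of 5 FPKM in place of 1 left 0 of the 10 past 0.32. Nothing is called particular to the 10 genes from these counts.

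**Figure D2:**
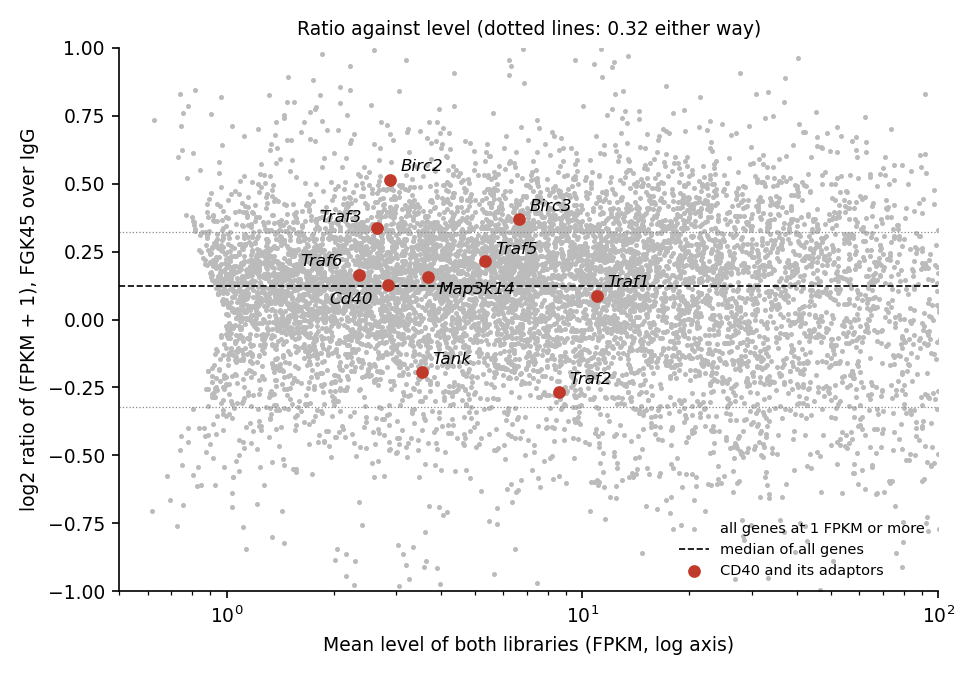
Log2 ratio of (FPKM + 1), anti-CD40 over IgG, against the mean level of both libraries in FPKM (log axis); grey points are genes at 1 FPKM or more, red points the 10 genes, the dashed line is the median of all genes at 0.12 and dotted lines mark 0.32 either way. Birc2 at 0.52 and Traf2 at -0.27 lie furthest apart among the 10, and 704 of 9591 genes fall outside the axes.

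The receptor itself differed little. Cd40 (chromosome 2, 165055614 to 165071654, GRCm38) had 3.01 FPKM under FGK45 and 2.67 under IgG. Its log2 ratio of 0.13 was at percentile 50.8 of all genes. The FPKM ratio was 1.13 (interval 0.836 to 1.54). The direction is lost when a trend on transcript GC content is removed (-0.0071), which also takes out the shift of the whole table described above. Centring on the median of all genes alone already gave 0.0088. CD40 ligand, Cd40lg, which activated T cells display, was listed at 0 in both libraries. B cells carry much CD40, but the summed level of 5 B cell markers was 1.23 FPKM under FGK45 and 0.978 under IgG, none reached 1 FPKM, and Pax5 was listed at 0 in both; the part of B cells in the Cd40 level was not tested. In bulk RNA, fewer cells that express a gene and less RNA per cell cannot be told apart. Over the 2 values on the log2(FPKM + 1) scale, Hpgd (3.02 and 2.65 FPKM), Plekha3 (3.03 and 2.68) and Ankle2 (3.01 and 2.64) were the genes nearest to Cd40. With 2 libraries such likeness is common, and 130 named genes lay within a distance of 0.1.

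Both ubiquitin ligases were higher under FGK45. Birc2 encodes cIAP1 (chromosome 9, 7818226 to 7837131) and had 3.56 FPKM under FGK45 and 2.19 under IgG. The 2 levels are apart beyond their counting intervals, which run from 3.12 to 4.06 and from 1.84 to 2.62. This was the largest log2 ratio of the 10, at 0.52, and a 1.62-fold difference (interval 1.30 to 2.03). It ranks 419 among 9591 genes from the highest ratio down, and 3.56% of 3315 genes within 2-fold of its mean level had a higher one. The fragment number assumes a transcript of 3130 bases; were all reads from the shortest coding transcript of 378 bases, the interval would widen to 0.872 to 3.40. Icosl, the ligand of the T cell costimulator ICOS (3.54 and 2.24 FPKM), Cwc25 (3.53 and 2.25) and Itch (3.49 and 2.15) were the genes nearest to Birc2 in both levels, and 29 named genes lay within a distance of 0.1.

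Birc3, which encodes cIAP2, lies next to Birc2 on the same strand (chromosome 9, 7847468 to 7873205), with 11635 bases between the GENCODE gene models. It had 7.61 FPKM under FGK45 and 5.67 under IgG. The log2 ratio was 0.37, and the 1.34-fold difference had counting bounds of 1.16 and 1.56. Together the 2 genes summed to 11.2 FPKM under FGK45 and 7.86 under IgG, 1.42-fold. Birc3 made up 68.1% of that sum under FGK45 and 72.1% under IgG, so Birc3 was the more abundant transcript of the pair in both libraries. The Birc3 to Birc2 ratio was 2.14 under FGK45 and 2.58 under IgG, and the interval on that 1.21-fold change runs from 0.921 to 1.58. These 2 genes are paralogs. Of the 50-base words in the coding transcripts, 1.89% of those of Birc2 and 9.16% of those of Birc3 occur in transcripts of another gene. For Birc3 the genes that share words include Gm7019 and Cyld (2.05 against 1.71 FPKM) besides Birc2. A small part of the reads could thus be assigned to another gene. Tmem123, the nearest gene at 1 FPKM or more on the other side of Birc2, 23894 bases away, was also higher, at 7.11 against 5.24 FPKM (log2 ratio 0.38). On the side of Birc3 the nearest such gene, Jrkl, lies 5369421 bases away and had 1.10 against 0.86 FPKM.

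The 5 TRAF genes summed to nearly the same level, 30.5 FPKM under FGK45 and 29.3 under IgG (1.04-fold), but their proportions differed. Traf2 and Traf3 went in opposite directions. Traf2, the adaptor that binds the cIAP proteins (chromosome 2, 25517982 to 25546940), had 7.71 FPKM under FGK45 and 9.48 under IgG. That is 1.23-fold lower (interval 1.08 to 1.41), and a log2 ratio of -0.27. Of 3260 genes within 2-fold of its level, 92.7% had a higher ratio. Traf3, which brings NIK to the complex (chromosome 12, 111166321 to 111267155), had 3.08 FPKM under FGK45 and 2.23 under IgG. It was 1.38-fold higher (interval 1.19 to 1.61), a log2 ratio of 0.34. The opposite-strand gene 4930595D18Rik overlaps Traf3 and had 0.108 and 0.0537 FPKM, far below it.

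The Traf2 to Traf3 ratio, taken within each library and so free of any scaling between them, was 2.50 under FGK45 and 4.25 under IgG. This 1.70-fold change has an interval from 1.39 to 2.09, counting error only. It was picked out after the values were seen, among 10 such pairs computed. Traf2 made up 25.3% of the summed TRAF level under FGK45 and 32.3% under IgG, while Traf3 made up 10.1% and 7.61%.

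**Figure D3:**
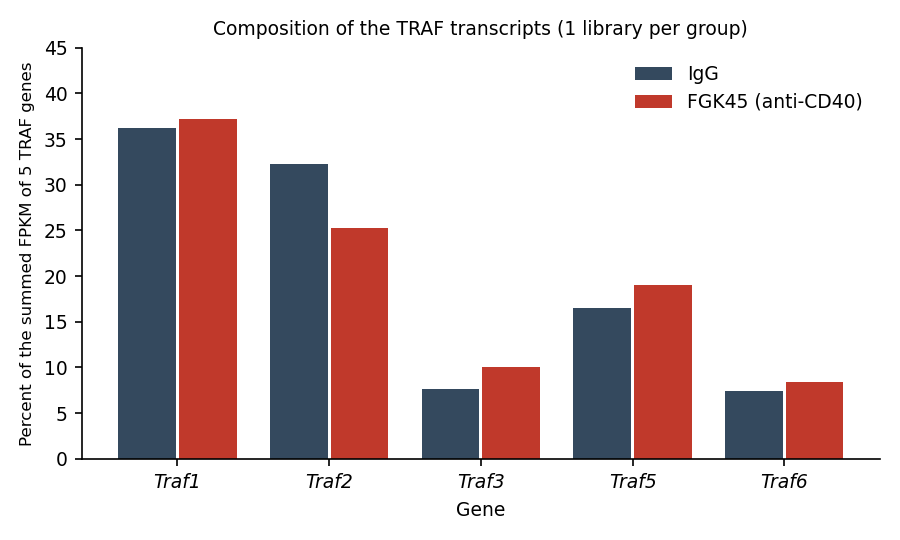
Share of each TRAF gene in the summed FPKM of Traf1, Traf2, Traf3, Traf5 and Traf6, in percent, with dark blue for IgG and red for FGK45 (1 library each, no error bars). The share of Traf2 is 25.3% under FGK45 and 32.3% under IgG, and the other 4 genes have a larger share under FGK45 than under IgG. Shares of the same sum are tied, so a smaller share of Traf2 by itself raises those of the others together.

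For the other 3 adaptors the counting intervals included no difference. Traf1, which lacks the RING domain of its relatives and forms complexes with TRAF2 (chromosome 2, 34941750 to 34961812), had 11.3 FPKM under FGK45 and 10.6 under IgG. The 1.07-fold difference had counting bounds of 0.938 and 1.22, and its log2 ratio of 0.09 lies below the median of all genes, so that it turns to -0.03 when ratios are centred on that median. Traf1 is a known NF-kB target, and its ratio here is near that of the table as a whole. Traf5, a close relative of TRAF3 in structure (chromosome 1, 191997203 to 192092599), had 5.80 FPKM under FGK45 and 4.85 under IgG. Its 1.20-fold difference had counting bounds of 0.980 and 1.46. Of its 50-base words, 8.15% are shared with an antisense transcript, so without a stated strand setting a part of its reads is uncertain. Traf6 (chromosome 2, 101678420 to 101701668) had 2.55 FPKM under FGK45 and 2.17 under IgG. That is 1.18-fold (interval 0.996 to 1.40), and a log2 ratio of 0.16. The ratio is 0.05 when centred on the median of all genes, and -0.0041 once a trend on GC content is removed, which also takes out the table-wide shift.

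NIK and TANK stood at similar levels and on opposite sides. Map3k14, the gene of NIK, whose protein is held low in resting cells by degradation (chromosome 11, 103219764 to 103267401), had 3.93 FPKM under FGK45 and 3.42 under IgG. Its 1.15-fold difference had counting bounds of 0.975 and 1.35, and the log2 ratio of 0.16 was at percentile 55.9 of all genes. Of its 50-base words, 2.05% occur in an overlapping transcript of the same strand. Tank, which binds TRAFs and the kinases TBK1 and IKK epsilon (chromosome 2, 61578557 to 61654171), had 3.25 FPKM under FGK45 and 3.85 under IgG. It was 1.19-fold lower (interval 0.932 to 1.51), and its log2 ratio of -0.19 was at percentile 14.3. The interval reaches both sides of no difference, but it leaves out the 1.11-fold by which the median gene was higher.

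Within each library the order of levels was largely the same. Traf1, Traf2, Birc3 and Traf5 held the first 4 places in both. Under IgG, neighbours in the order overlapped in their intervals except for Traf2 above Birc3. Under FGK45, Traf1 stood apart from Traf2, Birc3 from Traf5 and Traf5 from Map3k14, whereas Traf2 (7.71 FPKM) and Birc3 (7.61) overlapped. Birc2 held place 9 of the 10 under IgG and place 6 under FGK45, and Tank moved from place 5 to place 7. The 6 lowest genes under FGK45, from Map3k14 down to Traf6, form a chain in which each overlaps the next. Of the features of the transcripts, GC content ranged from 38.5% in Tank to 58.7% in Map3k14. It was 55.4% in Traf2, 47.0% in Birc3 and 52.9% in Traf3. With a trend on GC content removed, the log2 ratio of Birc3 went from 0.37 to 0.20 and that of Traf3 from 0.34 to 0.22. Those of Traf2 and Tank went from -0.27 to -0.31 and from -0.19 to -0.31. Removing this trend also takes out the shift of the whole table, whose median became 0.0031. Centring on the median of all genes alone gave 0.25 for Birc3, 0.22 for Traf3, -0.39 for Traf2 and -0.31 for Tank. The part of GC content in the differences was not tested.

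**Figure D4:**
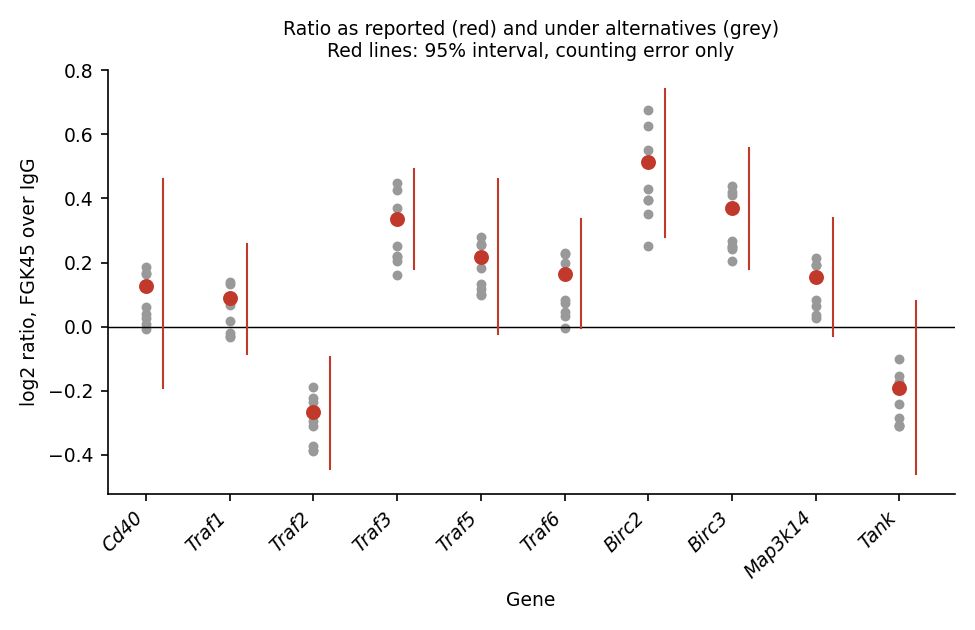
Log2 ratio of each of the 10 genes, anti-CD40 over IgG, as reported (large red points) and under alternative pseudocounts, scalings, filters and corrections (grey points); red lines are 95% intervals for counting error only, and the black line marks no difference. Birc2, Birc3, Traf3, Traf5 and Map3k14 stay above 0 and Traf2 and Tank below 0 under all settings run, while Cd40, Traf1 and Traf6 reach both sides.

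The wider pathway was described by lists of other genes, 90 in all, of which 69 reached 1 FPKM in either library. Of these, 16 were at least 0.32 higher on the log2 scale and 4 as much lower, the rule for all counts of higher and lower genes that follow, with a median log2 ratio of 0.17, beside 18.3% higher, 8.26% lower and a median of 0.12 over all genes. The alternative NF-kB pathway downstream of NIK lay near the median of all genes. Of Chuk, Nfkb2, Relb and Otud7b, 0 of 4 passed 0.32, with a median of 0.07 that turns to -0.05 when ratios are centred on the median of all genes and to -0.03 after upper-quartile scaling. Relb had 24.5 against 21.9 FPKM, Chuk, the kinase IKK alpha, 3.89 against 3.51, and Nfkb2 42.0 against 41.3. Among 7 targets of that pathway, only Icosl reached 1 FPKM, and it was higher, with 3.54 against 2.24 FPKM, a log2 ratio of 0.49 and a 1.58-fold difference (interval 1.26 to 2.01). Cxcl13 and Ccl21a were listed at 0 in both libraries.

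Of the canonical NF-kB genes Nfkb1, Rela, Rel, Nfkbia, Nfkbib and Nfkbie, 2 of 6 were higher (Nfkbia and Nfkb1) and 0 lower, with a median log2 ratio of 0.20. Nfkbia, the gene of the inhibitor IkB alpha, had 57.4 FPKM under FGK45 and 36.8 under IgG, 1.56-fold (interval 1.45 to 1.69). Nfkb1 had 8.41 against 6.00 FPKM, 1.40-fold (interval 1.23 to 1.60), and Nfkbie 11.0 against 9.45. Of linear ubiquitin ligase subunits and deubiquitinases, 1 of 7 was higher and 0 lower: Tnfaip3, the ubiquitin-editing inhibitor A20, at 8.60 against 4.03 FPKM. Otulin, which removes linear ubiquitin, had 38.3 against 47.0 FPKM, and Rbck1 33.9 against 28.5.

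Components of the TRAF6 branch lay on both sides. Of 8 genes of the TAK1 and IKK complexes at 1 FPKM or more, 3 were higher and 2 lower. The shares over all genes were 18.3% and 8.26%, and 20% and 14% among genes with a mean level of 15 FPKM or more. Nothing particular to this branch is read from such small counts. Tab2, which binds the ubiquitin chains that bring TAK1 to TRAF6, had 8.58 against 6.54 FPKM, and Tab1, a partner subunit of TAK1, 13.6 against 17.7. The ubiquitin-conjugating pair that works with TRAF6 went apart: Ube2n, the catalytic subunit, had 7.44 against 5.41 FPKM (1.37-fold, interval 1.21 to 1.56), and Ube2v1 69.1 against 97.7 (1.41-fold lower). Sqstm1, the scaffold p62, had 192 against 145 FPKM. Among kinases that link TRAFs to MAP kinases, 1 of 6 was higher, Map3k1 with 4.0 against 2.82 FPKM, and 1 lower, Map2k7 with 17.2 against 23.4; Map2k4 had 3.90 against 3.21.

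Around TANK, 2 of 7 genes were higher and 0 lower. Azi2 (NAP1), an adaptor of TBK1 like TANK, had 8.17 FPKM under FGK45 and 5.70 under IgG, 1.43-fold (interval 1.22 to 1.68), and so lay on the other side from Tank. Zc3h12a, the RNase Regnase, had 6.47 against 4.61 FPKM. Ikbke had 71.3 against 88.8, a log2 ratio of -0.31 that stays just short of that limit.

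Of 6 other TRAF proteins and partners at 1 FPKM or more, 0 passed 0.32 in either direction, and their median was 0.07; Tradd had 27.6 against 22.0 FPKM, Trafd1 75.1 against 62.0 and Tifa 12.5 against 10.8. Of 8 other IAP genes and IAP antagonists, 2 were higher and 1 lower, with a median of 0.20. Birc5 (survivin), which acts in mitosis, had 19.4 against 13.9 FPKM, Htra2 38.1 against 29.4 and Naip5, an inflammasome sensor with close paralogs, 5.91 against 7.87. Among other receptors that bind TRAFs, 1 of 6 was higher, Tnfrsf1b with 83.1 against 65.8 FPKM; Tnfrsf14 had 12.4 against 10.1 and Tnfrsf1a 51.5 against 43.8. Under IgG, Cd40 at 2.67 FPKM lay below 5 of the 10 listed receptors, from Tnfrsf11a at 5.34 to Tnfrsf1b at 65.8, and above the other 5, of which Tnfrsf4 was the highest at 1.07. Of 15 genes that CD40 is known to induce in antigen-presenting cells, 10 reached 1 FPKM, 3 were higher (Il1b, Cd80 and Tnf) and 0 lower. Cd80 passed the filter only through FGK45, with 1.69 against 0.862 FPKM. Cd86, at 0.649 against 0.989 FPKM, missed the filter and was left out of these counts. Its log2 ratio of -0.27 is short of the limit for lower genes.

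**Figure D5:**
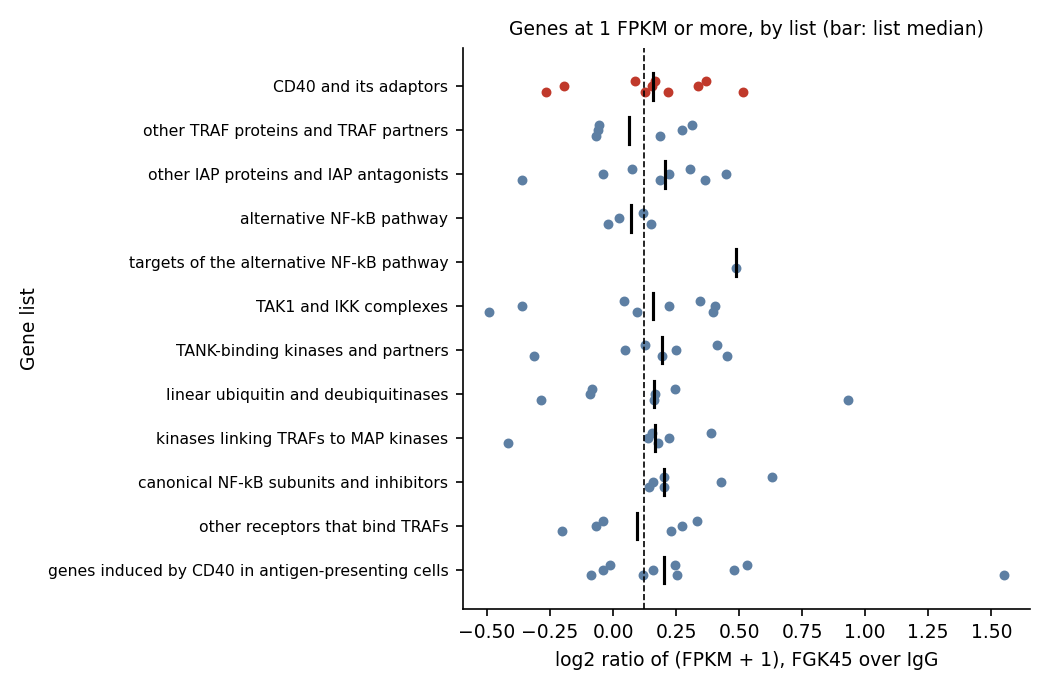
Log2 ratio of (FPKM + 1), anti-CD40 over IgG, of each gene at 1 FPKM or more, by list; points are genes, with the 10 genes of CD40 and its adaptors in red, short bars are list medians and the dashed line is the median of all genes at 0.12. The median of CD40 and its adaptors is 0.16, that of the canonical NF-kB genes 0.20 and that of the alternative NF-kB pathway 0.07; 1 gene, Il1b, lies at 1.55.

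The identity of the cells was checked on markers. All 8 macrophage markers were present, from 3.83 FPKM for Mertk under IgG upward. Of 30 markers of B cells, T cells, dendritic cells, neutrophils, stromal and erythroid cells, 2 reached 1 FPKM, Cd4 (3.94 against 3.04 FPKM, with Cd3e, Cd3d, Cd3g and Cd8a listed at 0 in both libraries) and Hba-a1 (1.18 against 2.91). The summed levels of stromal markers were 1.01 FPKM under FGK45 and 0.344 under IgG, of dendritic cell markers 0.198 and 0.206, of neutrophil markers 0.0731 and 0.131, and of erythroid markers 1.26 and 3.07. Their part in the differences above was not tested.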

How the data were processed

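The values the authors deposited, 1 per gene and library, were read as FPKM. The header leaves the unit unnamed, and the reading rests on StringTie, a tool in the submitters' processing notes, and on sums over genes that differ (529103.5 for anti-CD40, 547362.0 for IgG). HISAT2 2.1.0 and build mm10 stand in the same notes. Strand setting, annotation, read length and filters: not given in the sources used here. Per the labels' protocols, 1.3 ug of TRIzol-extracted RNA per library went into a TruSeq preparation. Columns were matched by name, and 0 were unused.

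Depth was estimated from the steps in which FPKM times gene length rises for single-exon genes. The best steps imply 6.16 gigabases (anti-CD40) and 5.58 (IgG), with 40.7% of 108 and 53.3% of 77 low genes whole within 0.05 steps, so the depth is approximate. Approximate fragments assume fragments of 300 bases and the median length of coding transcripts in GENCODE's basic set. Ratios have 95% exact conditional binomial intervals and levels exact Poisson ones (SciPy 1.17.1), for counting error only. Changes of a ratio between 2 genes have conditional odds ratio intervals.

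Genes were counted at 1 FPKM or more in either library, with a pseudocount of 1. Gene coordinates are RefSeq's (GRCm38.p6, the assembly behind mm10), to which all 34714 symbols matched. The named genes were the 10 members, up to 3 of each list with the largest ratio at 1 FPKM or more, the 3 genes nearest to Cd40 and to the member with the largest ratio, and overlapping or neighbouring genes; genes outside this rule were picked after their values were seen. The members and lists were chosen with earlier results of these data known.

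Alternatives were pseudocounts of 0.1 and 5 FPKM, centring, 3 rescalings (to a fixed sum, to the mean sum, to the mean upper quartile), no filter, a filter at 5 FPKM, and removal of trends on GC content or length (lowess span 0.3, statsmodels 0.14.6), known for 98.6% of counted genes.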

Additional observations from a re-analysis of the deposited data

How the results depend on the processing

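Of the 10 genes, 7 kept their direction under all alternatives run. How many of all genes keep theirs was not computed. Traf5 fell as low as 0.10 and Map3k14 as low as 0.03 on the log2 scale. Birc2 ranged from 0.25 to 0.68 on the log2 scale, Birc3 from 0.20 to 0.44, Traf3 from 0.16 to 0.45, Traf2 from -0.39 to -0.19 and Tank from -0.31 to -0.10. Cd40, Traf1 and Traf6, none past 0.32 in size, did not keep their direction. With the GC trend removed, Cd40 was -0.0071 and Traf6 -0.0041, against 0.0088 and 0.05 when only centred on the median of all genes. Traf1 was -0.03 when centred, -0.02 after upper-quartile scaling and -0.03 with the length trend removed. With a pseudocount of 5 FPKM, Traf3 was 0.16 and Birc2 0.25, and 0 of the 10 genes passed 0.32 upward, since that pseudocount exceeds most of these levels. The count of 3 higher became 1 when centred on the median, after upper-quartile scaling, with the GC or the length trend removed, and with a filter at 5 FPKM, which leaves 4 of the 10 genes. The count of 0 lower became 1 when centred, after upper-quartile scaling and with the length trend removed. Over all genes, the share at least 0.32 higher was 7.62% and lower 13.7% when centred, and 8.87% and 12.7% after upper-quartile scaling, so the split of higher against lower depends on the scaling. The shares were 7.59% and 4.97% with a pseudocount of 5, 5.35% and 2.60% with no filter, 8.51% and 12% with the GC trend removed, and 8.57% and 12.6% with the length trend removed. The median of all genes was 0.17 when rescaled to a fixed sum and 0.03 after upper-quartile scaling. It was 0.0031 with the GC trend removed and 0.006 with the length trend removed, against 0.12 as reported. Removing either trend, like upper-quartile scaling, takes out most of that shift, as centring does. These settings are thus not separate checks from centring. The alternative NF-kB list turned from 0.07 to -0.05 when centred and to -0.03 after upper-quartile scaling. No paired analysis was possible because each group has 1 library. The spread between cultures could not be measured, and differences within the counting intervals were not detectable at this depth.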
